A study of Mus musculus with 3 samples.

Results

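The genes described here are the RUNX family, Runx1, Runx2 and Runx3, and Cbfb, which encodes the shared partner of the RUNX proteins. They were examined for nearby peaks of the co-repressor ETO2. They are 4 of 22284 protein-coding genes in the mouse annotation used (GENCODE, build mm9). An ETO2 peak was assigned to a gene when its summit lay in the gene body or within 100 kb of it, or when the closest protein-coding start site was that of the gene. By this rule Runx1 had 10 of the 3192 ETO2 sites of the genome, and Runx2, Runx3 and Cbfb had 0 sites each.

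ETO2 binding was measured by chromatin immunoprecipitation and sequencing (ChIP-seq) in FLK1+ mesodermal cells purified from embryoid bodies, which are aggregates of differentiating embryonic stem (ES) cells. The ES cells were wild type and the labels give the strain as C57Bl/6 X Sv129. The stage was day 4 in the sample labels and day 3.5 in the design text of the series. There were 2 ETO2 ChIP libraries, replicate 1 and replicate 2, and 1 input library without antibody, and all of them came from cells of the same genotype and stage, so no conditions were compared. The authors called replicate 1 peaks with the input as control and called replicate 2 peaks with no control. The design text gives separate differentiations for the ChIP libraries, whereas both peak lists carry the same ChIP number in their peak names, and whether the immunoprecipitations were separate was not tested.

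RUNX proteins are transcription factors that contact DNA through the Runt domain and bind as a heterodimer with CBFβ, the non-DNA-binding product of Cbfb, which stabilises them on DNA. Runx1 is required for the first definitive blood cells to form from hemogenic endothelium, Runx2 directs bone formation, and Runx3 acts in lymphocytes and sensory neurons. Runx1 is transcribed from a distal promoter, P1, and a proximal promoter, P2, which are separated by a long intron that holds an enhancer active in hemogenic endothelium and named +23 after its distance from the P1 start codon. ETO2, the product of Cbfa2t3, does not bind DNA by itself and is brought to chromatin with complexes of SCL, E proteins, LMO2, LDB1 and GATA factors. In leukemia, RUNX1 is fused to ETO, the close relative of ETO2.

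A site below is named by the distance in kb from the P1 start site to its summit, positive in the direction of transcription. The 100 bp around the summit of each of the 6 Runx1 sites called in both replicates is shown because these windows hold the sequence to which the replicated binding was mapped. They are from the plus strand of mm9, while Runx1 lies on the minus strand. Capitals mark matches to the GATA motif, which was searched for on either strand as AGATAA or AGATAG and as the same letters with T in first place, TGATAA or TGATAG. In order from upstream to downstream the windows are chr16:93147942-93148041, chr16:93129912-93130011, chr16:92884178-92884277, chr16:92822573-92822672, chr16:92801950-92802049 and chr16:92715924-92716023.
-322: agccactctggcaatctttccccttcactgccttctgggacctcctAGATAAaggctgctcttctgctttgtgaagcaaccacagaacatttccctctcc
-304: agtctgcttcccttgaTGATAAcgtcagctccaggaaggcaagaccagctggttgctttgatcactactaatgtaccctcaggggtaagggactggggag
-58: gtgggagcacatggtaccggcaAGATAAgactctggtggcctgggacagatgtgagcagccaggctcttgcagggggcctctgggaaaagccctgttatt
+3.7: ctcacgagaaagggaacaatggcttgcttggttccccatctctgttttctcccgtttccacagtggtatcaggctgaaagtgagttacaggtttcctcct
+24: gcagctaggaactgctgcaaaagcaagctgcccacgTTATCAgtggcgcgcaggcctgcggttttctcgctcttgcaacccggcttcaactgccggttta
+110: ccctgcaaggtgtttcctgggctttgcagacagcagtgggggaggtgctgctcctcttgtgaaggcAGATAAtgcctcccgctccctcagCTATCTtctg
The window of the +110 site had 2 GATA matches and the window of the +3.7 site had none, while each of the other 4 windows had 1. None of the 6 windows repeated in the genome, since 100% of their 24-mers occurred once.

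Runx1 (ENSMUSG00000022952.9) occupies chr16:92601712-92826311, a body of 224.6 kb. Of its 10 ETO2 sites, 3 lay in the gene body, 2 lay within 100 kb upstream and 5 lay farther upstream, where Runx1 had the closest start site. All 10 sites had a Runx1 start site as the closest, so none was claimed from another promoter by distance to the gene body. Among protein-coding genes, 15 had more sites by the same rule and 5 others had the same number, so that 99.9% of genes had fewer. Of those 15, Gm20388, a gene model of 4435 kb, had 29 sites called in both replicates, Gm3395 had 3, and the others had 0. By sites called in both replicates, 2 genes were ahead of Runx1. At least 1 site was assigned to 27.8% of protein-coding genes, and at least 1 site called in both replicates to 11.1%.

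**Figure D1:**
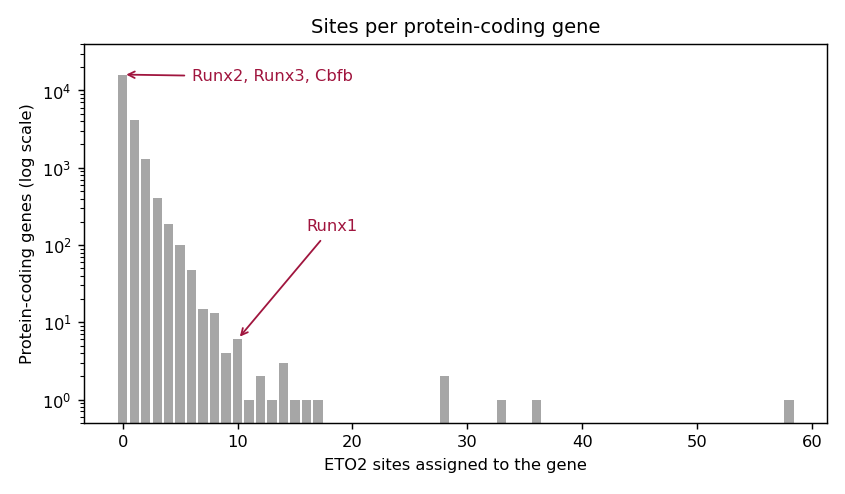
The number of ETO2 sites assigned to a protein-coding gene (x axis) is plotted against the number of genes with that many sites (y axis, log scale). Runx1 stands at 10 sites, and Runx2, Runx3 and Cbfb stand in the bar of genes with 0 sites.

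The sites spread over 437.5 kb on both sides of P1. The protein-coding neighbours are Clic6, which ends 60.2 kb beyond the 3' end of Runx1, and Setd4, whose 3' end is its nearer edge and lies 757 kb upstream of P1. The 1042 kb between them held 10 sites, or 9.59 per Mb, against 1.202 per Mb over the genome. The upstream stretch alone held 7 of the sites, 3 of them called in both replicates. No other gene model lay over any of the 10 sites. Neighbouring sites were between 5.51 kb apart, for the -327 and -322 sites, and 112 kb apart, for the -170 and -58 sites.

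All 3 sites in the gene body were in intron 2 of the P1 transcripts, between P1 and P2. The +3.7 site (chr16:92822371-92822828) was the closest to P1 and its summit was 3.69 kb downstream of it. The +24 site (chr16:92801924-92802135) had its summit 23.9 kb from the P1 start codon, inside the window of 22 to 25 kb that was set here for the +23 enhancer. The +110 site (chr16:92715803-92716286) was 18.4 kb upstream of P2, which itself lies 128.7 kb from P1. No peak in either list covered P1 or P2, and none lay between P2 and the end of the gene. The lists hold only peaks past the threshold of the caller, so this does not give the level of ETO2 at the promoters.

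Upstream of P1, the -31 site (chr16:92857124-92857350) and the -58 site (chr16:92884033-92884463) were within 100 kb of the gene. The -170 site (chr16:92996512-92996859) and the -246 site (chr16:93072015-93072271) followed in the long stretch without protein-coding genes. The 3 remaining sites lay together, at -304 (chr16:93129788-93130043), -322 (chr16:93147811-93148138) and -327 (chr16:93153399-93153617). These upstream sites are intergenic, and in these peak lists only distance to the start site ties them to Runx1.

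**Figure D2:**
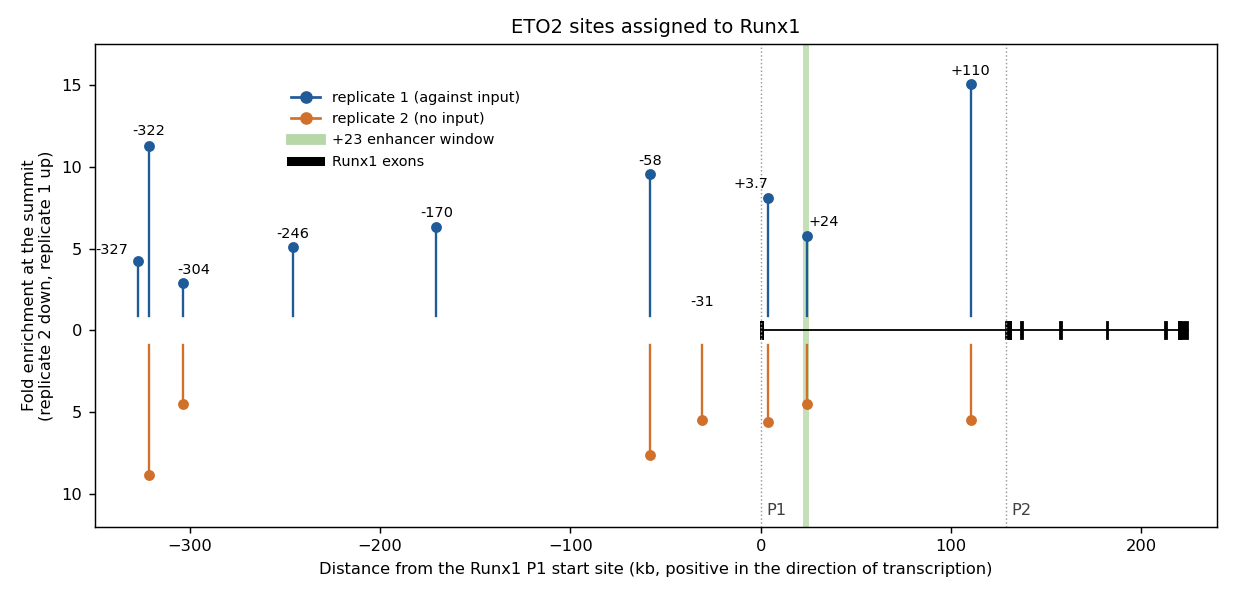
Fold enrichment at the summit of each Runx1 site (y axis, replicate 1 upwards and replicate 2 downwards) is plotted against the distance from the P1 start site in kb (x axis). Black boxes are exons, widened to 1 kb where they are shorter, dotted lines are P1 and P2, and the green band is the window of the +23 enhancer. The +24 site falls in the band, and no site lies between P2 and the end of the gene.

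Binding at Runx1 was called in both replicates at 6 of the 10 sites, -322, -304, -58, +3.7, +24 and +110, against 31.4% of all sites. The -327, -246 and -170 sites were called in replicate 1 alone, and the -31 site in replicate 2 alone. From the side of each list, 6 of the 9 Runx1 peaks of replicate 1 overlapped a replicate 2 peak, where 43.0% of all replicate 1 peaks did, and 6 of the 7 Runx1 peaks of replicate 2 overlapped a replicate 1 peak, where the share of all peaks was 54.2%. These shares of all sites and peaks include sites in repeated sequence, whereas the summit windows of all 10 Runx1 sites were unique. Shares over unique sites alone are not given here. All 3 sites in the gene body were in both lists, and the sites of a single list were all upstream of P1. The summits of the replicates were 1 bp apart at the +24 site, 5 bp at the +110 site and 12 bp at the -58 site. They were 37 bp apart at the -322 site, 43 bp at the -304 site and 117 bp at the +3.7 site, the widest distance of the 6.

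The strength of each site is given as the fold enrichment that the authors' peak caller assigned to the summit, and as the number of ChIP fragments there, which was recovered from the deposited fold enrichment and p-value. The intervals in brackets are exact 95% Poisson intervals, which cover counting error only. The lists had different controls, so fold enrichments were ranked within a list and not compared between lists by level. The 2335 peaks of replicate 1 had a median of 27 fragments and a median fold enrichment of 5.24, and for the 1873 peaks of replicate 2 these medians were 35 and 4.85. The median fold enrichment of the Runx1 peaks was 6.34 in replicate 1 (n = 9) and 5.49 in replicate 2 (n = 7).

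The +110 site in the intron upstream of P2 was the strongest Runx1 site of replicate 1. It had 72 fragments (56.3 to 90.7) and a fold enrichment of 15.0 in that library, above 97.1% of its list. In replicate 2 it had 33 fragments (22.7 to 46.3) and a fold enrichment of 5.49, above 63.7% of the list. The site was thus near the top of one list and in the middle of the other. On the log2 scale, replicate 1 exceeded replicate 2 by 1.13 in fragments (exact binomial interval 0.51 to 1.77), and this ratio was above that of 99.002% of the 1002 sites called in both replicates. Over those 1002 sites the median log2 ratio was 0 and the 5th to 95th percentiles were -0.75 to 0.76. The libraries also differed in read depth, for which the fragment numbers were not corrected. The control used for calling differed too, and it enters the fold enrichment through the local background. What caused the difference at this site was not tested.

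The other 5 shared sites had log2 fragment ratios between -0.36 and 0.23, and each of their intervals included 0. The -322 site had 52 fragments (38.8 to 68.2) in replicate 1, a fold enrichment of 11.2, and 54 fragments (40.6 to 70.5) in replicate 2, a fold enrichment of 8.86. It was above 92.7% and 93.1% of the peaks of the respective lists, and it was the strongest Runx1 site of replicate 2. The -58 site had 51 fragments (38.0 to 67.1) in replicate 1, with a fold enrichment of 9.55, and 55 fragments (41.4 to 71.6) in replicate 2, with a fold enrichment of 7.59. It was above 88.0% and 87.8% of the lists. The 2 strong upstream sites therefore had nearly the same fragment number in both libraries.

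The +3.7 site, next to P1, had 48 fragments (35.4 to 63.6) in replicate 1, a fold enrichment of 8.12, and 41 fragments (29.4 to 55.6) in replicate 2, a fold enrichment of 5.61. It was above 81.4% of the first list and 66.3% of the second. The +24 site, in the window of the +23 enhancer, was among the weaker of the 6 shared sites in both libraries. It had 21 fragments (13.0 to 32.1) in replicate 1, a fold enrichment of 5.77, and 27 fragments (17.8 to 39.3) in replicate 2, a fold enrichment of 4.52. These values were above 59.1% and 38.5% of the lists.

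The -304 site had the lowest fold enrichment and the highest local background of the Runx1 peaks in replicate 1. It had 25 fragments (16.2 to 36.9) over a local background of 11.0 in replicate 1, and its fold enrichment of 2.88 was above 1.71% of the list. In replicate 2 it had 27 fragments (17.8 to 39.3) over a background of 5.19 and a fold enrichment of 4.52, above 38.5% of the list. The fragment numbers, not corrected for read depth, were nearly equal. The backgrounds of the libraries are not on one scale. In replicate 1 the background came with the input as control, and ChIP fragments were scaled by 1.34 before being set over it. In replicate 2 there was no control and the scale was 1, so 11.0 and 5.19 are not compared by level. A local background at least as high as that of the -304 site was found at 5.91% of the replicate 1 peaks, and the backgrounds of the other 8 Runx1 peaks in replicate 1 lay between 4.06 and 7.06.

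The 4 sites of a single list had fewer fragments than the -322, -58 and +3.7 sites had in the same library, but not fewer than every shared site. In replicate 1 the shared +24 and -304 sites had 21 and 25 fragments, both fewer than the -170 site, and the +24 site also had fewer than the -246 site. In replicate 2 they had 27 each, fewer than the -31 site. In replicate 1, the -170 site had 29 fragments (19.4 to 41.6) and a fold enrichment of 6.34, the highest of the 3 sites in that list alone. The -246 site had 22 fragments (13.8 to 33.3) and a fold enrichment of 5.09. The -327 site had 18 fragments (10.7 to 28.4) and a fold enrichment of 4.26, above 26.5% of the list. In replicate 2, the -31 site had 33 fragments (22.7 to 46.3) and a fold enrichment of 5.49, the same values as the +110 site in that library. A site missing from a list may still carry fragments below the threshold, and these could not be counted here. Over each whole list, the median fold enrichment of peaks found there alone was 4.64 (replicate 1) and 4.36 (replicate 2), against 6.83 and 5.38 for shared peaks.

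**Figure D3:**
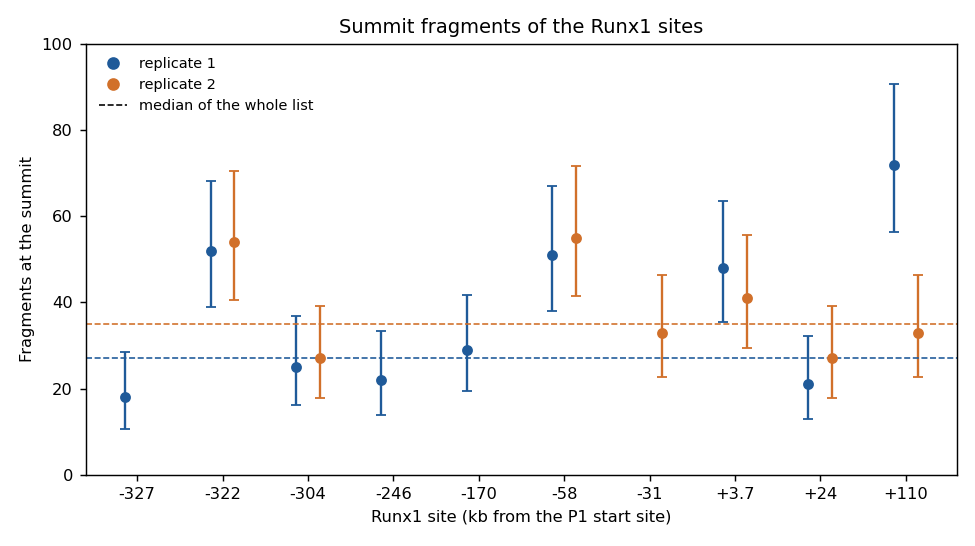
Fragments at the summit (y axis) are plotted for each Runx1 site (x axis, kb from the P1 start site), with exact 95% Poisson intervals as bars and the median of each whole list as a dashed line of the same colour. The +110 site has 72 fragments in replicate 1 and 33 in replicate 2, and at the 5 other shared sites the bars of the replicates overlap.

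In replicate 1 the order of fold enrichments from highest to lowest was +110, -322, -58, +3.7, -170, +24, -246, -327 and -304. No 2 neighbours in this order differed beyond their counting intervals, for which the local background was held fixed. The interval of the +110 site (11.8 to 18.9) was apart from those of 6 other sites, and that of the -304 site (1.89 to 4.21) from those of 5. In replicate 2 the order was -322, -58, +3.7, then -31 and +110 with equal values, then -304 and +24 with equal values. Again no neighbours differed beyond counting error. Only the -322 site (6.70 to 11.5) was apart from any other, namely from the -304 and +24 sites. The equal values come from whole fragment numbers over the lowest background of the library, 5.19, which 36.7% of all replicate 2 peaks and 4 of the 7 Runx1 peaks shared.

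**Figure D4:**
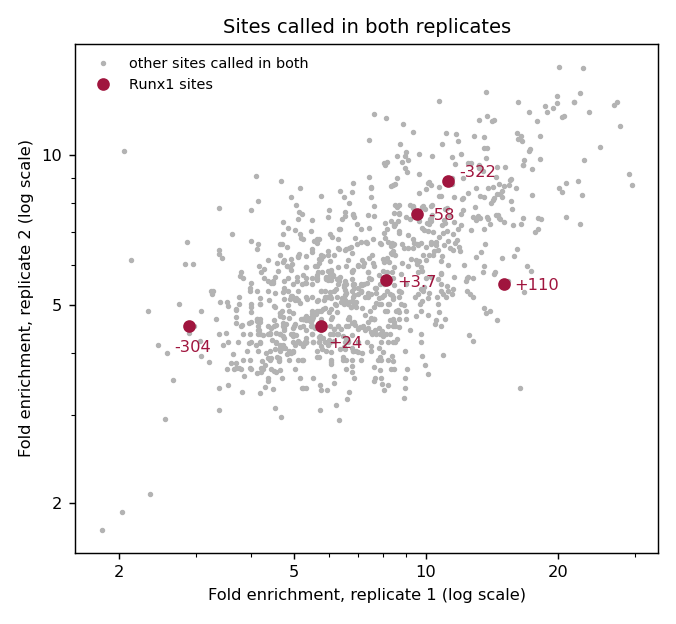
Fold enrichment in replicate 2 (y axis, log scale) is plotted against that in replicate 1 (x axis, log scale) for the 1002 sites called in both, with the 6 Runx1 sites in red. The +110 site, at 15.0 and 5.49, lies to the lower right of the cloud, and the -304 site, at 2.88 and 4.52, lies at its left edge.

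The Runx1 windows were searched for motifs of the factors that ETO2 complexes and RUNX proteins are known to meet at enhancers. A GATA match lay in the 100 bp window of 7 of the 10 Runx1 sites (Wilson interval 39.7% to 89.2%), against 54.4% of all sites and 17.2% of equally long flanking windows, whose centres were 500 bp from the summit. Among the sites called in both replicates, 5 of the 6 Runx1 windows and 72.5% of the 1002 windows over the genome had a GATA match. Flanking windows of the Runx1 sites had one in 4 of 20. With 10 sites, the interval of the Runx1 share included the share of all sites. The -327, -170 and +3.7 windows had no GATA match, and widening the window to 200 bp added a match at the +3.7 site, for a share of 80%. In 50 bp windows the share was 40%, with matches at the -322, -246, +24 and +110 sites. The shares of all sites and of flanks given above are for 100 bp windows, so the 50 bp and 200 bp shares cannot be set against them.

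The composite motif of SCL complexes, CTG followed after 8 to 10 bases by GATA, was found on either strand in the windows of the -322, -31 and +24 sites. It occurred in 766 of the 3192 sites and in 2.68% of all flanking windows, and in none of the 20 flanking windows of the Runx1 sites. The E-box CANNTG, bound by SCL with E proteins, was in 5 of the 10 Runx1 windows, against 45.0% of all sites and 40.6% of flanks. The form CAGCTG, which is itself an E-box and was counted there too, was in the -304 and -246 windows and in 11.4% of all sites and 4.45% of flanks. AGGAA, the core of ETS factor sites, was in 5 Runx1 windows, against 41.4% of all sites and 33.0% of flanks.

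The RUNX motif, TGTGGT or TGCGGT on either strand, was in the windows of 3 Runx1 sites, -322, -31 and +24. It was in 12.03% of all sites, in 511 of 6384 flanking windows, and in 1 of the 20 flanks of Runx1 sites. The 3 windows with a RUNX match were the same 3 that held the composite CTG and GATA motif, an overlap seen only after the matches were listed. Over all sites, 96 of 3192 windows (3.01%) had both. In the +24 window printed above, counted from its first base, the GATA match covers bases 37 to 42 and the RUNX match, TGCGGT, bases 57 to 62. The -170 window held no match to any of the 6 motifs, and the -327 and +3.7 windows held only the ETS core. A match is a description of the letters in the window and no measure of binding by the factor.

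**Figure D5:**
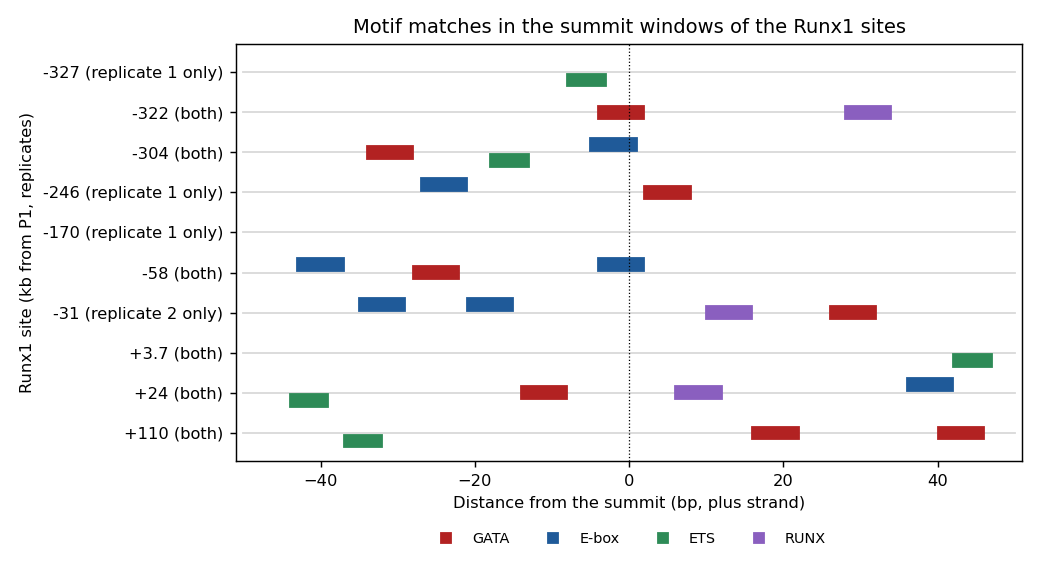
Motif matches (coloured boxes) are drawn by their distance from the summit in bp (x axis) for the 100 bp window of each Runx1 site (y axis, with the replicates that called it). GATA matches are in 7 windows and RUNX matches in 3, and the -170 window is empty.

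Runx2, which directs osteoblast formation, had no ETO2 site by the rule. Its body of 318.8 kb (chr17:44632936-44951746, ENSMUSG00000039153.9 and ENSMUSG00000092206.1 counted as 1 gene) is longer than that of Runx1 and has 8 annotated start sites. The closest peak downstream, called in replicate 1 alone with a fold enrichment of 4.93, was 362 kb from the gene body and had the start of Enpp4 as the closest. The closest upstream, called in both replicates with fold enrichments of 4.19 and 4.18, was 689 kb away near Aars2, and its summit window was repeated sequence.

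Runx3, which acts in T cells and sensory neurons, occupies chr4:134676567-134733905 (ENSMUSG00000070691.4) and had no site by the rule either. The closest peaks lay just outside the limit of 100 kb, at 109 kb downstream near Clic4 and at 139 kb upstream near Syf2. Both were called in replicate 1 alone, with 22 and 21 fragments and fold enrichments of 4.44 and 4.86, below the median of that list.

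Cbfb, which encodes the partner that all 3 RUNX proteins require, occupies chr8:107694574-107741886 (ENSMUSG00000031885.7) and had no site. The closest peak downstream was 303 kb away inside Hsd11b2, a steroid-metabolising enzyme gene. It was called in both replicates, with 56 and 30 fragments and fold enrichments of 7.60 and 3.51. Upstream, the next peak was 9019 kb away. Like Runx2, 16080 other protein-coding genes had no site, Runx3 and Cbfb among them, so a count of 0 does not set these 3 genes apart, and because the lists hold only called peaks it does not measure how little ETO2 was there.

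The nearest peak outside Runx1 on its 3' side was 108 kb from the gene body, in Clic6, and was called in replicate 1 alone with a fold enrichment of 6.66. By the numbers of sites called in both replicates, in replicate 1 only and in replicate 2 only, the gene most like Runx1 was Zc3h18, with the same numbers (6, 3 and 1, distance 0). Next came 7 genes tied at a Euclidean distance of 1.41. They were Ets1, an ETS factor gene, Galns and Trappc2l (5, 2 and 1 each), Gse1 (5, 4 and 1), and Zfpm1, Trhr2 and Gm22 (6, 2 and 0 each). Ets1 and Gse1 were the closest of the 7 to Runx1 in gene body length, and all of them but Ets1 lie on chromosome 8, as does Zc3h18. These counts rest on 2 libraries. Zc3h18 lies beside Zfpm1, the gene of the GATA partner FOG1, and the highest fold enrichments of both genes, 22.7 in replicate 1 and 8.31 in replicate 2, were the same. Trhr2 and Gm22, in the same stretch of chromosome 8, had these values too. Galns and Trappc2l, which lie next to each other, both had 18.2 and 10.9. Neighbours can share sites by the rule, so these genes are not separate examples.

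Genes that act with RUNX proteins were counted by the same rule, with neighbours allowed to share a site. This list and those of the next paragraph were chosen with earlier results of these data known. Their shares are therefore a description and no test against all genes. Of 10 genes of factors that bind Runx1 enhancers, 9 had a site, and each of the 9 had a site called in both replicates, against 27.8% and 11.1% of all protein-coding genes. Fli1 and Ets1, neighbouring ETS genes, had 8 sites each and shared their highest fold enrichments of 14.2 and 8.63. Tal1, which encodes SCL, had 3 sites with a fold enrichment of up to 26.8 (replicate 1) and 12.6 (replicate 2). Gata2 and Erg had 4 sites each, Lyl1 had 3, Smad1 had 2, Lmo2 and Gata1 had 1 each, and Ldb1 had 0.

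Of 18 genes of RUNX partner proteins, 11 had a site and 6 had a site called in both replicates. The shares of all protein-coding genes were 27.8% and 11.1%. In this list and the next, some genes had the same highest fold enrichments as another listed gene, so they are not separate examples. Cbfa2t3, the gene of ETO2 itself, led with 7 sites with a fold enrichment of up to 27.7 (replicate 1) and 11.4 (replicate 2). Runx1t1, which encodes ETO, had 4 sites with up to 17.2 and 12.2, and the Groucho co-repressor gene Tle3 had 3 sites with up to 10.9 and 5.25. Of the 15 genes listed as RUNX1 targets in blood, 14 were protein-coding in the annotation used, and Gfi1 was not and was left out. Among the 14, 9 had a site and 4 had one called in both replicates, beside the same shares of 27.8% and 11.1% of all protein-coding genes. Those 4 were Myb with 4 sites, Gfi1b with 3, Nfe2 with 3 and Itga2b with 1. The highest fold enrichments in replicate 1 were 15.8 at Gfi1b, 13.2 at Myb, 11.8 at Nfe2 and 5.95 at Itga2b.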

How the data were processed

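Reads from the 2 ETO2 ChIP libraries had been aligned by the authors to mm9 with Bowtie, and peaks called per library with MACS2 2.0.10 (submitters' processing notes). The deposited lists give each peak's position, integer score, fold enrichment at the summit, and −log10 p and q, all calculated by the authors. Overlapping peaks (at least 1 bp) were merged into sites. Whole summit fragments and local background were solved from the fold and −log10 p with a Poisson model (NumPy 2.4.6, SciPy 1.17.1). ChIP fragments were scaled by 1.34 in replicate 1, a value chosen for the closest match, and by 1 in replicate 2. The model matched 100% of peaks. It recovered 300 of 300 simulated peaks per list. These were drawn from the same model and scale, so they check the solving and not the model. Total read depth is not part of these lists. Genes were those of GENCODE for mm9. A further list of positions for the series, and the input by itself, were not used. Every site of the 4 genes is named, with the 3 genes most like Runx1 by site counts (ties by gene body length; genes tied with them are named too) and the lists of related genes. One gene of these lists is counted in the totals but not reported here by itself. Members and lists were chosen with earlier results of these data known. Wilson, binomial and Poisson intervals (95%) cover counting error only. With 1 group of 2 libraries no test between conditions was possible. Distance limits, assignment, thresholds, overlap, windows and each library were varied.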

Additional observations from a re-analysis of the deposited data

How the results depend on the processing

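The counts of sites rest on the assignment rule and on 2 libraries called with different controls. Of the 47 values recomputed under an alternative, 39 stayed near the reported value (within 1.5 times a count or the interval of a share) and 8 moved. With a limit of 200 kb in place of 100 kb, Runx3 had 3 sites in place of 0, Runx1 had 12, and Runx2 and Cbfb kept 0. With the gene body and 100 kb around it alone, an alternative chosen after seeing the data, Runx1 had 5 sites. The share of genes with fewer sites than Runx1, 99.9058%, became 99.9506% by nearest start site only, 99.9417% with q of at most 1e-05, 99.9776% with unique windows and 99.4211% per kb of the gene body and its flanks, and ranged from 99.8564% without replicate 1 to 99.982% without replicate 2. The strongest Runx1 site was above 97.1306% of its list without replicate 2 and, as the -322 site, above 93.0593% without replicate 1. The GATA share of Runx1 sites, 70%, was 40% in 50 bp and 80% in 200 bp windows, and 66.7% without replicate 2 and 85.7% without replicate 1. Runx1 had 7 sites without replicate 1 and 9 without replicate 2. Of the 6 shared sites, 5 remained with summits within 50 bp and 5 with q of at most 1e-05. Peak lists hold no values below the threshold, so lower binding at Runx2, Runx3, Cbfb and both Runx1 promoters was not detectable. No paired analysis was possible because there is 1 ChIP group and no comparison between groups.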
